A study of Mus musculus with 15 samples.

Results

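A set of 10 genes that control the size of skeletal muscle was followed through the transcriptomes of mice with altered Pdgfrb, which encodes a platelet-derived growth factor receptor. Of these, 5 belong to the myostatin and activin pathway: the ligands Mstn and Inhba, the ligand binders Fst and Fstl3 and the receptor Acvr2b. The others belong to the insulin-like growth factor (IGF) pathway: the ligands Igf1 and Igf2, the receptor Igf1r and the binding proteins Igfbp3 and Igfbp5. They were taken from a list of known growth control genes by gene name, and all 10 were found among the 55536 genes of the deposited tables. All are annotated as protein-coding, and gene coordinates are those of GENCODE M21 on GRCm38.

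RNA was sequenced from skeletal muscle of male mice aged 2 months, in 3 groups of 5 samples. Controls were labelled wild type, the second group carried a Pdgfrb knockout and the third the Pdgfrb allele D489V, which the design text calls constitutively active. That text describes both changes as myogenin-specific, myogenin being a factor of differentiating muscle cells, so the other cells of the muscle are not described as altered. The driver line, whether controls carried it, the strain and which muscle was taken are not given in the sources used here. Nothing in the labels ties a sample number to an animal, so the p-values measure the spread between these samples.

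Myostatin and activin A, the product of Inhba, bind activin receptors such as ACVR2B on muscle fibres and signal through SMAD2 and SMAD3, which limits fibre growth; follistatin, the product of Fst, and FSTL3 trap both ligands outside the cell. IGF1 and IGF2 bind the IGF1 receptor and drive protein synthesis through AKT and mTOR. IGF binding proteins hold both IGFs in the tissue and in the blood and set how much reaches the receptor.

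The levels are normalized counts, gene counts that the authors scaled between samples and rounded. They summed to between 29815559 and 36489777 in each sample. Pdgfrb read 1673 to 1848 in controls, 958 to 1628 in knockouts and 820 to 1062 in D489V samples. The tissue label matched the myofibre genes, with Acta1 at 939485 or above in every sample. The sample labelled knockout 3 held 3165 counts of Xist, an RNA of the inactive X chromosome, against at most 101 in the other samples, which goes against its label as male. Genes of B and T cells summed to 3813 in control 5 and to 1200, 3395 and 972 in knockouts 3, 4 and 5, and to at most 174 elsewhere. Schwann cell genes summed to 49785 in D489V 3, against at most 15028 elsewhere.

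Knockout and D489V muscle differed in 3 of the 10 genes. Fst was lower in knockout by a ratio of means of 0.530, Igfbp3 by 0.593 and Igf1r by 0.650. Against the wild-type controls, none of the 10 passed the threshold in either mutant, where 0.00656% of 15234 tested genes passed it in knockout and 0.0587% of 15339 in D489V. A gene was called changed at a Benjamini-Hochberg adjusted p under 0.05 in limma, a linear model fitted across all genes, on log2(normalized count + 1). Between knockout and D489V, 20.8% of the 15299 tested genes were called, 10.5% higher in knockout and 10.3% lower; the 3 called growth control genes were all lower.

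The promoter sequences of 3 of these genes show how different their control regions are, and are given as the 250 bases before the start site in RefSeq (GRCm38.p6). Mstn lies at chr1:53061640-53068079 on the plus strand, and its window at chr1:53061390-53061639. Igf1r lies at chr7:67952827-68233668 on the plus strand, with its window at chr7:67952007-67952256, before a RefSeq start upstream of that gene model, and Igfbp3 at chr11:7206086-7213923 on the minus strand, with its window at chr11:7213924-7214173. Mstn is shown because E-boxes are the sites of myogenin and related factors, and Igf1r and Igfbp3 because both were called. No promoter window was matched for Fst, which was also called. Capitals mark the E-box (CANNTG) and the TATA box (TATAAA) in Mstn and the GC box (GGGCGG) in Igf1r; the window of Igfbp3 holds no GC box and is printed without capitals.
Mstn: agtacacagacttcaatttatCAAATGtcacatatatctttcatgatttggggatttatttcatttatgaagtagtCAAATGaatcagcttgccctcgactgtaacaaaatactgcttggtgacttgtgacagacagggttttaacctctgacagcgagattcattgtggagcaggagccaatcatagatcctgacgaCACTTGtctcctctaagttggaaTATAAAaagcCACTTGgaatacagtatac
Igf1r: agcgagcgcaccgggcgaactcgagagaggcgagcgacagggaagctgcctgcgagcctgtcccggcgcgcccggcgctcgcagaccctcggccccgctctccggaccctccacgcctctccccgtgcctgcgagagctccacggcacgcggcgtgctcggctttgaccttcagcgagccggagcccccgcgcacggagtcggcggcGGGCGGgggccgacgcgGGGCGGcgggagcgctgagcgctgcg
Igfbp3: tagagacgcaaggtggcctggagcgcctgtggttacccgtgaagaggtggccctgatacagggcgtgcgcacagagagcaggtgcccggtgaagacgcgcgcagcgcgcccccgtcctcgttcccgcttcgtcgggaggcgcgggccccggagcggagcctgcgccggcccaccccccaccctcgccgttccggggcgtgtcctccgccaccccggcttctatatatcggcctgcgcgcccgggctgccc

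The Mstn window held 4 E-boxes, 229, 174, 52 and 19 bases before the start site, and a TATA box 29 bases before it. Its GC content was 38.4%, with 3 CpG dinucleotides. The Igf1r window was 77.6% G and C with 42 CpG dinucleotides, no E-box and 2 GC boxes, and the Igfbp3 window was 73.2% G and C with 32 CpG dinucleotides and 1 E-box. Over all 32851 RefSeq promoter windows of this length, searched on both strands, 66.22% held an E-box, 12.37% a TATA box and 32.74% a GC box, and the median window had a GC content of 52.4% and 6 CpG dinucleotides. The promoters of Igf1r and Igfbp3 are therefore both rich in CpG, while the promoter of Mstn is not. These matches are letters in a window and do not show that a factor binds.

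Mstn, the growth-limiting ligand made by muscle fibres, was the more abundant of the 2 TGF-beta family ligands. In controls 1 to 5 it read 1010, 1616, 1616, 1737 and 2038, in knockouts 1 to 5 1878, 1553, 2778, 2005 and 2180, and in D489V samples 1623, 1668, 1100, 1761 and 1978. The knockout mean of 2079 ± 453 (SD, n = 5) stood above the control mean of 1603 ± 374 (SD, n = 5), but 3 of 5 knockouts lay within the control range. The highest value, 2778, was that of knockout 3. The difference was 0.38 on the log2 scale with a standard error of 0.19 and was not called (limma adjusted p = 0.352, exact permutation p = 0.111). D489V and control means differed by 0.030, with a 95% interval from -0.39 to 0.45, and the sign of that difference changed when control 1 was left out (-0.13).

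Inhba (chr13:16011851-16031621, plus strand), which encodes the activin A subunit, was read at low levels throughout. Its values were 78, 78, 53, 66 and 49 in controls, 55, 65, 43, 37 and 53 in knockouts and 75, 72, 64, 71 and 40 in D489V samples. Among D489V samples 4 lay between 64 and 75 and the fifth stood apart at 40. The knockout mean was 50.6 ± 10.9 (SD, n = 5) against 64.8 ± 13.6 (SD, n = 5) in controls, and the groups overlapped. Neither this difference (-0.35, limma adjusted p = 0.417) nor that from D489V (-0.33, limma adjusted p = 0.284) was called.

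Fst, which encodes follistatin, the secreted trap of activins and myostatin, separated the mutant groups completely. It lies at chr13:114452290-114458951 on the minus strand. Knockouts 1 to 5 read 261, 302, 154, 161 and 201 and D489V samples 479, 432, 402, 368 and 355, so the highest knockout lay below the lowest D489V sample. Of all tested genes, 13.9% had groups that did not overlap in this comparison, and Fst was 1 of the 10 growth control genes to do so. Fst fell by 0.95 on the log2 scale in knockout relative to D489V, with a standard error of 0.18 and a 95% interval from -1.35 to -0.56 (limma adjusted p = 0.00714). The exact permutation p was 0.00794, the smallest that 5 against 5 samples can give.

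The controls of Fst read 463, 438, 333, 177 and 242 and spanned both mutant groups. Controls 1 and 2 lay within the D489V range and controls 4 and 5 within the knockout range. The knockout mean of 216 ± 64.3 (SD, n = 5) was lower than the control mean of 331 ± 123 (SD, n = 5) by 0.57 on the log2 scale, with limma adjusted p = 0.346, and by 0.22 without controls 1 and 2 or 0.24 without the B and T cell libraries. The D489V mean of 407 ± 50.1 (SD, n = 5) was higher by 0.38, with limma adjusted p = 0.655. With D489V 3 and controls 4 and 5 left out, that second difference was -0.0062, and with controls 1 and 2 left out it was 0.74 (limma adjusted p = 0.0994). Its size against controls thus depended on which controls were counted.

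Fstl3 (chr10:79777272-79782630, plus strand), a follistatin-like binder of the same ligands, was low and was not called in any comparison. It read 60, 47, 50, 57 and 34 in controls, 60, 44, 37, 71 and 65 in knockouts and 47, 55, 68, 54 and 46 in D489V samples. Knockout and D489V differed by 0.0096, with a 95% interval from -0.45 to 0.47 on the log2 scale, and the sign of this value flipped under upper-quartile rescaling (-0.050). The intervals of Fst and Fstl3 in this comparison did not overlap, though the difference between the genes was not tested.

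Acvr2b (chr9:119402118-119434995, plus strand), the type II receptor for myostatin and activins, had its highest mean in D489V. Controls read 134, 95, 71, 70 and 79, knockouts 93, 152, 62, 62 and 98, and D489V samples 168, 125, 141, 80 and 127. The D489V mean of 128 ± 31.9 (SD, n = 5) exceeded the control mean of 89.8 ± 26.7 (SD, n = 5) by 0.51 on the log2 scale, with a standard error of 0.23. It was not called (limma adjusted p = 0.509, exact permutation p = 0.0794), and 3 of 5 D489V values lay within the control range. Knockout and control means differed by 0.019, a value whose sign changed with the sample left out.

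**Figure D1:**
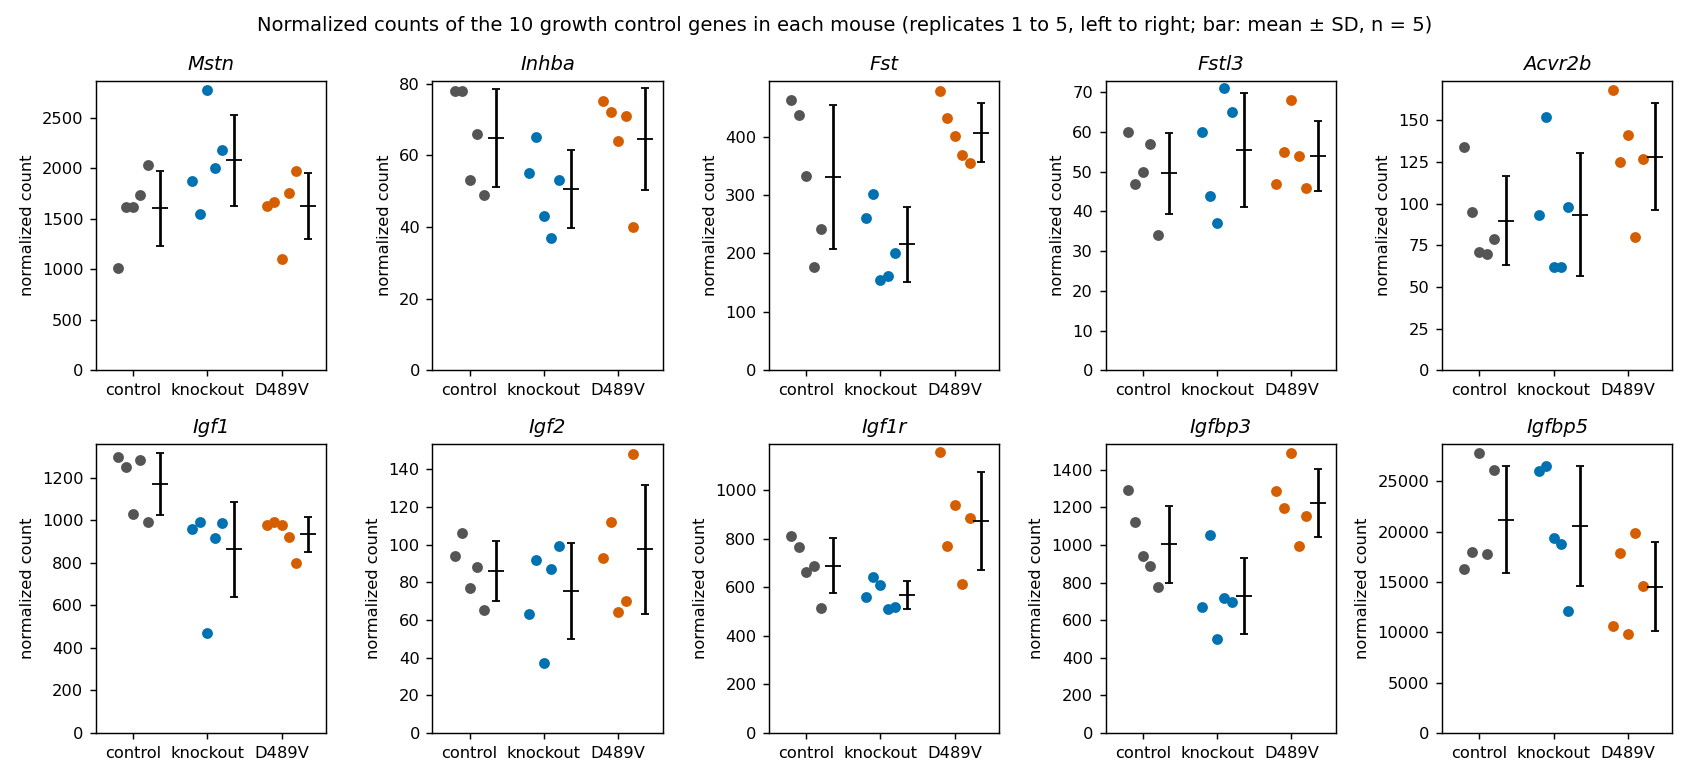
Normalized counts of the 10 growth control genes in each of the 15 samples, with the group mean and SD. The Fst panel shows knockouts at 154 to 302, all below the D489V samples at 355 to 479, with controls spread from 177 to 463.

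The balance of Mstn to its trap was read as a ratio within each sample, which does not depend on library scaling. The ratio of Mstn to Fst was 7.17, 5.13, 17.9, 12.4 and 10.8 in knockouts 1 to 5 and 3.38, 3.85, 2.73, 4.78 and 5.56 in D489V samples. Knockouts 1, 3, 4 and 5 lay above every D489V sample, and knockout 2 lay below D489V 5. The mean log2 ratio differed by 1.31 between these groups, 2.48-fold, with an exact two-sided permutation p of 0.0159, or 0.0714 after adjustment over the 9 ratio comparisons made. This ratio holds the called Fst difference of -0.95 and the Mstn difference of 0.35, which was not called. It is thus not independent of the Fst result. Controls ran from 2.18 to 9.76 and overlapped both groups, at exact permutation p = 0.0873 against knockout and 0.444 against D489V.

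Igf1 (chr10:87858265-87937042, plus strand), the growth-promoting ligand made in muscle and liver, had its highest mean in controls. Controls 1 to 5 read 1299, 1251, 1032, 1283 and 992, knockouts 959, 993, 469, 918 and 987, and D489V samples 979, 995, 977, 922 and 799. In each mutant group 4 of 5 samples lay below every control. The difference from control was -0.48 in knockout, with a standard error of 0.20, and -0.32 in D489V, with a standard error of 0.11. The exact permutation p was 0.0159 for each, before any adjustment. Over all genes neither was called, at limma adjusted p = 0.312 and 0.353. The 2 comparisons share their controls and are not independent.

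The lowest Igf1 value, 469, belonged to the sample labelled knockout 3. That sample had the lowest sums of fibro-adipogenic progenitor genes, 38101 against 67290 or more elsewhere, and of tendon genes, 7463 against 10940 or more. Its sums of endothelial, mural cell, macrophage, Schwann cell and erythroid genes were also the lowest, at 7819, 21524, 771, 6245 and 3175. Its slow fibre sum, 202936, was the highest. The part of these in its Igf1 value was not tested. Without knockout 3 the Igf1 difference from control was -0.27 (limma adjusted p = 0.473, exact permutation p = 0.0556). Knockout and D489V differed by -0.16, and without knockout 3 by 0.049. Of all tested genes, 2.24% in knockout and 2.16% in D489V had values that did not overlap those of the controls, and none of the 10 growth control genes was among them. At an unadjusted limma p under 0.05 stood 2 of the 10 in knockout, Igf1 and Igfbp3, and 3 in D489V, Igf1, Igfbp5 and Acvr2b. Over all genes the same cut held 15.1% and 9.43%.

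Igf2 (chr7:142650766-142666816, minus strand), the second IGF ligand, whose level is highest in fetal life, was low in all groups. It read 94, 106, 77, 88 and 65 in controls, 63, 92, 37, 87 and 99 in knockouts and 93, 112, 64, 70 and 148 in D489V samples. The lowest value again belonged to knockout 3. No comparison was called, with limma adjusted p between 0.376 and 0.894. The ratio of Igf1 to Igf2 ran from 11.7 to 15.05 in controls, 9.88 to 15 in knockouts and 5.37 to 15.05 in D489V samples, and no comparison of it fell under an exact permutation p of 0.111.

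Igf1r encodes the receptor through which both IGFs act. It read 560, 641, 610, 509 and 518 in knockouts and 1160, 769, 940, 614 and 885 in D489V samples. D489V 4, at 614, was the only D489V sample below a knockout, and 4 of 5 knockouts lay below all D489V samples. Igf1r fell by 0.60 on the log2 scale in knockout relative to D489V, with a standard error of 0.15 and a 95% interval from -0.92 to -0.27 (limma adjusted p = 0.0190, exact permutation p = 0.0159). Controls read 810, 766, 665, 689 and 514 and lay between the mutant groups in the mean, at 689 ± 114 (SD, n = 5) against 568 ± 57.3 and 874 ± 203. Neither difference from control was called, at -0.27 (limma adjusted p = 0.342) for knockout and 0.33 (limma adjusted p = 0.591) for D489V.

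Igfbp3, the main IGF carrier of the blood and also a product of tissue cells, followed the same order. Knockouts read 672, 1052, 498, 716 and 697, D489V samples 1288, 1197, 1489, 997 and 1155, and controls 1292, 1124, 941, 888 and 774. Knockout 2, at 1052, was the only knockout above a D489V sample. Igfbp3 fell by 0.78 on the log2 scale in knockout relative to D489V, with a standard error of 0.17 and a 95% interval from -1.15 to -0.41 (limma adjusted p = 0.0118, exact permutation p = 0.0159). Against controls, at 1004 ± 205 (SD, n = 5), knockout differed by -0.48 (limma adjusted p = 0.312) and D489V by 0.30 (limma adjusted p = 0.569), neither called. In knockout 4 of 5 samples were below every control.

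Igfbp5 (chr1:72857932-72874884, minus strand), the IGF binding protein with the highest counts in these muscles, did not share that order. It read 16330, 17998, 27824, 17767 and 26069 in controls, 26045, 26525, 19323, 18777 and 12077 in knockouts and 10591, 17891, 9826, 19821 and 14561 in D489V samples. The D489V mean of 14538 ± 4386 (SD, n = 5) was the lowest, with 3 of 5 samples below every control. Its difference from control was -0.56, with a standard error (SE) of 0.22 (adjusted p in limma = 0.452, exact permutation p = 0.0714), and it was not called. Knockout exceeded D489V by 0.50, again not called (limma adjusted p = 0.153).

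Between the mutants, the means of Igfbp3 and Igfbp5 differed in opposite directions. The ratio of Igfbp3 to Igfbp5 was 0.0258 to 0.0578 in knockouts and 0.0503 to 0.152 in D489V samples. The mean log2 ratio was -4.81 ± 0.49 (SD, n = 5) in knockout and -3.53 ± 0.64 (SD, n = 5) in D489V, a difference of -1.28. The exact two-sided permutation p was 0.0159, or 0.0714 after adjustment over the 9 ratio comparisons. This ratio holds the called Igfbp3 difference of -0.78 and is not independent of it. The groups overlapped, and controls, at 0.0297 to 0.0792, lay across both.

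**Figure D2:**
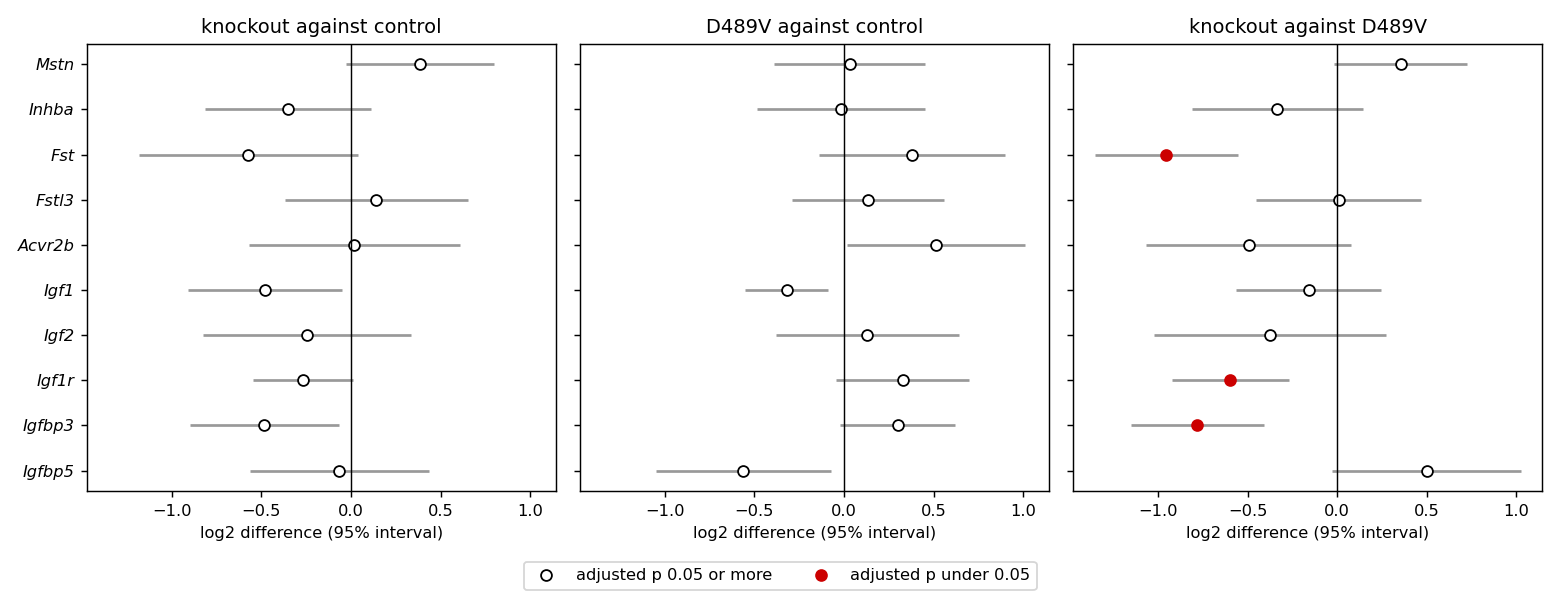
Difference in mean log2(normalized count + 1) of each growth control gene in the 3 comparisons, with its 95% interval from limma; filled points have an adjusted p under 0.05. The filled points are Fst at -0.95, Igf1r at -0.60 and Igfbp3 at -0.78, in knockout against D489V.

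**Figure D3:**
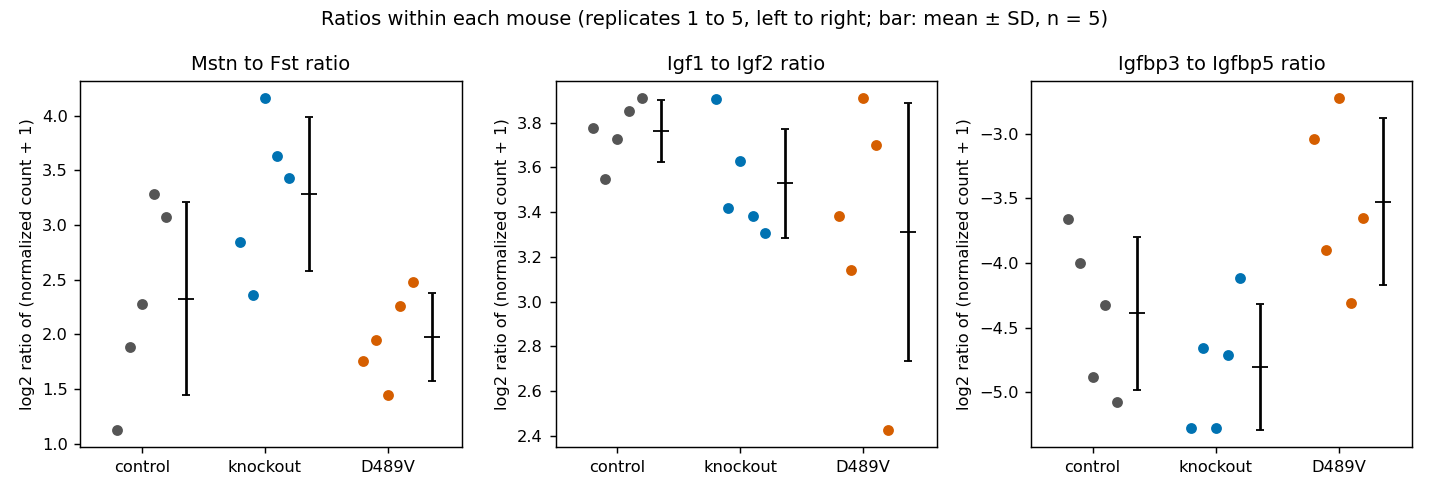
Ratios within each sample, on a log2 scale, for Mstn to Fst, Igf1 to Igf2 and Igfbp3 to Igfbp5, by group with the mean and SD. The mean Mstn to Fst log2 ratio was 3.29 in knockout, 2.33 in control and 1.98 in D489V.

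Across the 10 genes, the order of the group means took 5 forms. For Fst, Igf1r, Igfbp3 and Igf2, D489V was highest, control in the middle and knockout lowest. For Inhba and Igf1 control was highest and knockout lowest, for Mstn and Fstl3 knockout was highest and control lowest, and Acvr2b and Igfbp5 each had an order of their own. The median difference over the 10 was -0.35 in knockout against D489V, -0.26 in knockout against control and 0.13 in D489V against control, while the median over all tested genes was 0.00040, 0.011 and 0.0019. The 10 genes were chosen with earlier results of these data known, and these medians carry no test.

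Per kilobase of exon, the 10 genes kept 1 order of mean level in all 3 groups. In controls Igfbp5 stood at 3529 normalized counts per kilobase, Mstn at 593, Igfbp3 at 321 and Igf1 at 118. Fst followed at 72.04, Igf1r at 41.0, Acvr2b at 22.9, Fstl3 at 20.3, Igf2 at 15.03 and Inhba at 10.1. Among neighbours in that order, the control samples did not overlap between Igfbp5 and Mstn or between Igfbp3 and Igf1, and the other neighbours overlapped. Fst also stood clear of Igf1r in D489V, where its lowest sample, at 77.4, was above the highest Igf1r sample, at 69.1.

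**Figure D4:**
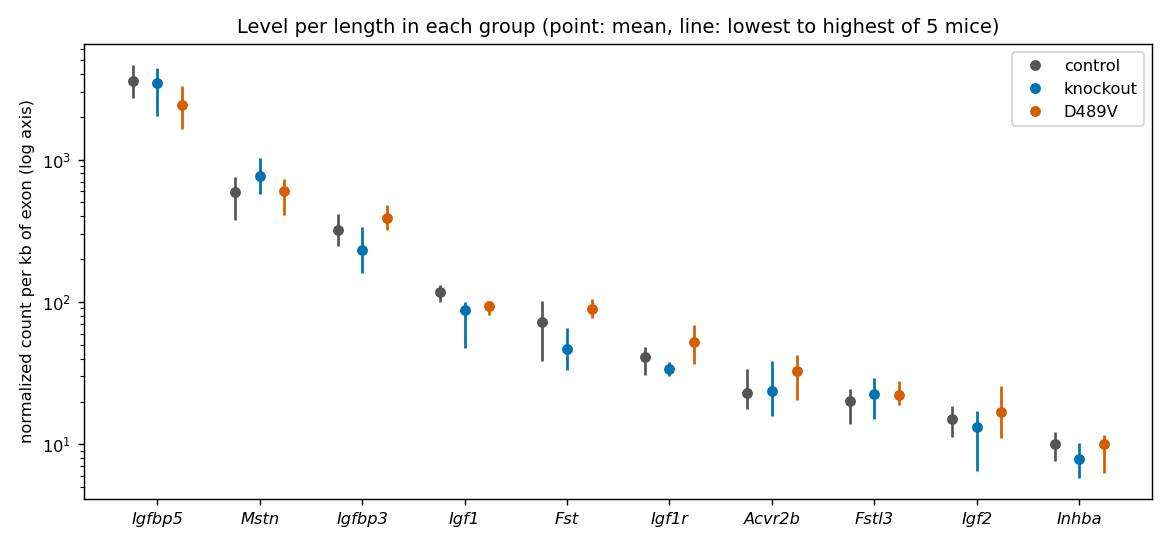
Level per kilobase of exon of the 10 growth control genes, on a log axis, by group. Points are group means, and lines run from the lowest to the highest of 5 samples. Igfbp5 is highest and Inhba lowest in all 3 groups.

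Variation between samples of a group was large for several of these genes. The pooled standard deviation within groups of Fst was 0.43 on the log2 scale, larger than in 90.5% of 2581 genes of like level, and that of Mstn was 0.34, larger than in 90.0% of 1803. Igfbp5 (0.42, 88.7%), Igfbp3 (0.30, 85.0%) and Igf1 (0.30, 84.7%) were also more variable than most genes of their level. Inhba and Fstl3, at 0.33 and 0.32, were less variable than most genes of their level, with 27.6% and 20.1% of these below them.

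The 3 called genes moved in the same comparison as genes of several other cell types of muscle. Over all tested genes 20.8% were called in this comparison, 10.3% of them lower in knockout as a share of all tested. All 6 endothelial genes of the marker list were called lower in knockout than in D489V, and their sum was 7819 to 12828 in knockouts, 15307 to 17936 in D489V samples and 13560 to 19611 in controls. The adipocyte sum was 11540 to 19929 in knockouts, 29505 to 95944 in D489V samples and 7083 to 65563 in controls, with 5 of 6 genes called lower. Of 6 Schwann cell genes, 6 were called lower, with sums of 6245 to 9832 in knockouts, 12324 to 49785 in D489V samples and 8776 to 14295 in controls. The 5 erythroid genes were also all called lower, with sums of 3175 to 8032 in knockouts and 12454 to 22120 in D489V samples, while controls, at 5671 to 8413, lay near the knockouts. Of 7 mural cell genes 1 was called higher and 3 lower. No gene of these lists was at 0 in every sample, and their part in the results for Fst, Igf1r and Igfbp3 was not tested. In whole muscle, fewer cells of a type and less RNA per cell cannot be told apart.

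Among genes of muscle fibres, 0 of 6 myofibre, 0 of 7 slow fibre and 0 of 6 fast fibre genes were called between knockout and D489V in limma. Fibro-adipogenic progenitor, tendon and macrophage genes also had 0 called. Of 7 satellite cell genes 1 was called, higher in knockout. Over all tested genes 20.8% were called, a share at which lists this short can hold no called gene. Slow fibre sums varied widely within groups, from 16394 to 189727 in controls. They were highest in control 5 (189727), knockouts 3, 4 and 5 (202936, 148860 and 127057) and D489V 3 (197327), against 7092 to 84054 elsewhere. Control 5 and knockouts 3, 4 and 5 were also the samples with the most B and T cell RNA. The part of slow fibre content in the results was not tested.

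The likeness of other genes to each growth control gene was read over the 15 samples, among 12158 genes, as a description. Fst ranked the samples most like Ushbp1 (Spearman rho = 0.982), whose means were 1502 in knockout, 2429 in control and 2855 in D489V. Igfbp3 was most like Nav1 (0.951) and Nectin2 (0.950), and Igf1r most like Platr32 (0.943) and Spaca6 (0.926). The gene most like Mstn was Psmd9 (0.922), a proteasome assembly factor, and the one most like Inhba was Ppargc1b (0.921), a transcriptional coactivator. Igfbp5 was most like Gm10031 (0.924), Acvr2b most like Cnpy2 (0.913), Igf1 most like Cd34 (0.857), Igf2 most like Gm43672 (0.854) and Fstl3 most like Pgf (0.842). These values share the libraries and groups of the samples and carry no test.

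The rest of both pathways was read through 89 other genes in 10 lists. In knockout against control 0 of the 83 tested were called in limma, with 21 at an unadjusted p under 0.05, and in D489V against control 0 of 84, with 11. Over all tested genes that unadjusted cut held 15.1% in knockout and 9.43% in D489V against control. Between knockout and D489V 16 of 83 were called, 7 higher and 9 lower in knockout, or 19.3%, close to the 20.8% of all tested genes. Their median difference was -0.015. Under upper-quartile rescaling the split was 2 higher and 9 lower, and over all genes the share higher moved from 50.3% to 32.9%.

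In the myostatin and activin pathway, 1 of 6 other ligands, 1 of 10 binders and activators and 2 of 8 receptors were called. All were lower in knockout than in D489V. The shares were 16.7%, 10% and 25%, against 20.8% of all tested genes. Acvr1c, a type I receptor known from fat, read 45 to 77 in knockouts and 101 to 457 in D489V samples, a difference of -2.04 (limma adjusted p = 0.00398). Inhbb, which encodes the activin B subunit, had means of 45.4 ± 10.6 (SD, n = 5) and 102 ± 29.8 (SD, n = 5), a difference of -1.13 (limma adjusted p = 0.00855). Wfikkn1, an inhibitor of myostatin, was low, at means of 9.6 and 22 (-1.14, limma adjusted p = 0.0353). Bambi, a pseudoreceptor, fell by 0.59 on the log2 scale, at a limma adjusted p of 0.0487. The genes with the highest mean counts in these lists, not divided by length, Tgfb3, Tgfb2, Dcn, Fstl1, Acvr1b and Tgfbr2, were not called, with differences between -0.11 and 0.43.

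In the SMAD list, 2 of 11 tested genes were called, both higher in knockout, or 18.2% against 20.8% of all tested genes. Smad3, which carries the signal of the myostatin and activin receptors, averaged 2915 ± 339 (SD, n = 5) in knockout and 2165 ± 441 (SD, n = 5) in D489V, a difference of 0.44 (limma adjusted p = 0.0360). Smurf2, a ubiquitin ligase that acts on this pathway, rose by 0.41 (limma adjusted p = 0.0312). Without knockout 3 and D489V 3 neither was called (limma adjusted p = 0.0883 for Smad3 and 0.0930 for Smurf2). Ski, a corepressor of SMADs, was not called (0.12).

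On the IGF side, genes were called in both directions, as they were over all tested genes. Of 6 proteases of IGF binding proteins and their inhibitors, 2 were called, both lower in knockout: Stc1 (-1.42, limma adjusted p = 0.00564) and Pappa (-0.95, limma adjusted p = 0.0141). Pappa encodes the protease pappalysin, which frees IGF from its carriers, and Stc1 encodes stanniocalcin, which inhibits that protease. Of 20 signal carriers 4 were called higher and 2 lower. The shares called were 33.3% of the proteases and inhibitors and 30% of the carriers. Over all tested genes 20.8% were called, 10.5% higher and 10.3% lower. Deptor, an inhibitor of mTOR, averaged 3445 ± 588 (SD, n = 5) in knockout and 2130 ± 534 (SD, n = 5) in D489V, a difference of 0.72 (limma adjusted p = 0.0192). Pdpk1, the kinase that acts on AKT, rose by 0.45, and Irs1, the adaptor of the receptor, by 0.40. Eif4ebp1, a repressor of translation under mTOR control, fell by 0.65 on the log2 scale, at a limma adjusted p of 0.00921, and Ddit4, an inhibitor of mTOR, fell by 0.59. The list of carriers thus held inhibitors of mTOR in both directions.

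No other IGF receptor and no other IGF binding protein was called, in 3 and 5 genes tested, against 20.8% of all tested genes. Igf2r averaged 3217 ± 280 (SD, n = 5) in knockout and 2499 ± 502 (SD, n = 5) in D489V (0.38, limma adjusted p = 0.0533), and Insr differed by 0.033. Igfbp7 and Igfbp4, with the highest counts of the other binding proteins, differed by -0.50 and -0.36 (limma adjusted p = 0.0707 and 0.123). Htra1 and Stc2, with the highest counts of the protease list, and Akt2 of the carriers were not called either (0.37, -0.55 and 0.11). Without knockout 3 and D489V 3, Stc2 was called at -0.93 (limma adjusted p = 0.00381) and Htra1 at 0.46 (0.0239), and without the B and T cell libraries Stc2 was called at -0.71 (0.0438).

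In the growth hormone list, Jak2, the kinase of the growth hormone receptor, was the 1 called gene of 6 and rose by 0.57 (limma adjusted p = 0.0114), while Ghr and Stat5b differed by 0.13 and -0.068. Among 8 tested genes of the Igf2 locus and other imprinted growth genes, Igf2bp2, which encodes an RNA-binding protein of Igf2 mRNA, fell by 1.10 on the log2 scale, at a limma adjusted p of 0.0183. In the growth hormone and Igf2 locus lists 16.7% and 12.5% were called, against 20.8% of all tested genes. H19, an imprinted RNA whose gene lies 72.6 kb from Igf2, read 60659 to 111002 in knockouts and 77210 to 158191 in D489V samples and was not called, nor was Cdkn1c, with differences of -0.37 and -0.17.

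**Figure D5:**
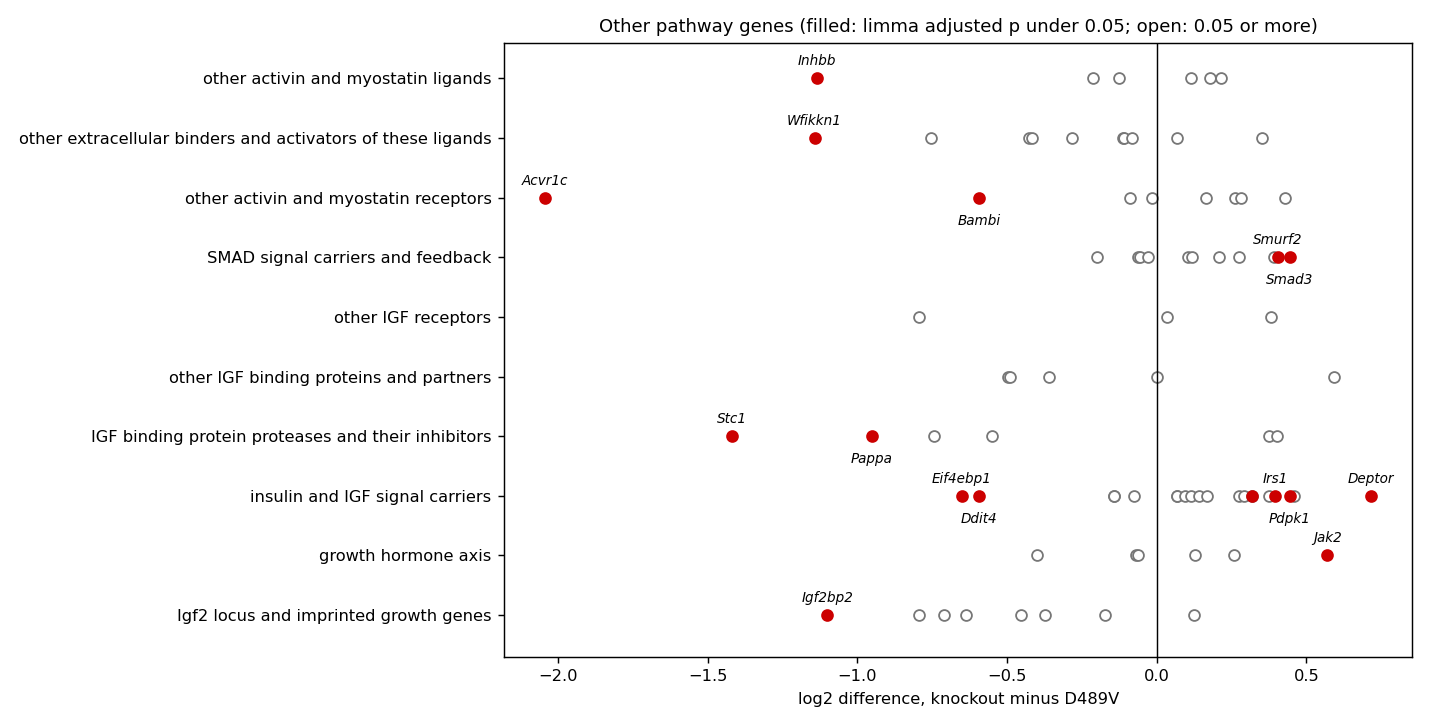
Log2 difference, knockout minus D489V, of the other pathway genes in 10 lists; filled points have a limma adjusted p under 0.05, and up to 5 of these in each list are named. Acvr1c, at -2.04, lies farthest from 0, and 7 filled points are above 0 and 9 below.

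Fst, Igf1r and Igfbp3 all lost their call in knockout against D489V without the 3 knockout samples with the most B and T cell RNA. The same 3 had the highest slow fibre sums of the knockouts. No other 3 knockouts were left out for comparison, so a smaller group and these traits cannot be told apart. Without knockouts 3, 4 and 5, which leaves 2 knockouts, Fst differed by -0.53 (limma adjusted p = 0.0778), Igfbp3 by -0.53 (0.128) and Igf1r by -0.51 (0.160), so 0 of the 10 genes were called against 3.67% of all tested genes. Of the 16 other pathway genes called in the full comparison 2 were still called, Stc1 and Ddit4, and 14 were not; Stc2 was called in addition. Without knockout 3 and D489V 3, Fst and Igfbp3 were still called and Igf1r missed the threshold (-0.59, limma adjusted p = 0.0538). Of the 16 other pathway genes 7 were called in that setting, Acvr1c, Stc1, Eif4ebp1, Inhbb, Deptor, Pappa and Jak2, and 9 were not: Bambi, Wfikkn1, Smad3, Smurf2, Ddit4, Pdpk1, Irs1, Igf2bp2 and Rps6kb1. With any 1 sample left out, all 3 remained called.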

How the data were processed

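The unit of the deposited tables is a score: per their names, they hold gene counts after normalization by the authors, here in whole numbers. Trim Galore 0.6.0, cutadapt, FastQC, STAR 2.7.0e, DESeq2 1.26.0 and GRCm38 are named without order in the submitters' processing notes; how counts were made is not given in the sources used here. Poly(A) RNA was made into strand-preserving libraries, per the labels' protocols. Whether strand was used in counting is not given. Antisense genes overlapping exons of Fst, Fstl3 and Igf2 read at most 18. Gm49394, on the same strand as Igf2 with overlapping exons, read at most 1, and how reads shared by both were counted is not given.

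The 2 tables, each with the controls and 1 mutant group, were joined by gene identifier; the control values were identical. The median ratio to the geometric mean of all samples was 1.0069 to 1.0097, so mutants were compared directly. All 55536 identifiers matched GENCODE M21. Gene names were taken from the table with the knockouts, because 27 names in the table with D489V were date-like, against 0 in the other. A promoter window in RefSeq was matched for 9 of the 10 genes, all but Fst, with 12 start sites.

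Comparisons of 5 against 5 used limma 3.58.1 in R 4.3.3 (trend, two-sided) on log2(value + 1), which understates changes of low genes, where 5 of 10 samples reached 10. Depth is not known from normalized values, so no counting interval is given. Exact permutation tests cannot go below 0.00794. Levels per kilobase used merged exon lengths. The fit was tested on simulated data.

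The members and lists were chosen with earlier results of these data known. All 10 members are named; of each pathway list, up to 5 called genes with the largest differences and the 2 with the highest mean; for likeness, genes with a mean of 50 or more. Groups are from the labels. Alternatives changed pseudocount, filter, scaling, variance model, samples in the fit and the replicate block, and left out samples. Tables and plots were made with pandas 2.3.3, numpy 2.4.6 and matplotlib 3.10.9 in Python 3.11.15.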

Additional observations from a re-analysis of the deposited data

Results flagged for a closer look

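In 2 of 39 groups of 5 values looked at, 1 sample stood far from the other 4, by Dixon's criterion that its gap exceeds 0.71 of the range. Chance flags about 1 in 20 groups, or 1.95 of 39. The log2 level of Igf1 was 8.88 in knockout 3, against 9.84 to 9.96 in the other knockouts, a gap of 0.895 of the range. That sample also held 3165 counts of Xist, against a label of male. The log2 level of Inhba was 5.36 in D489V 5, against 6.02 to 6.25 in the other D489V samples, a gap of 0.747 of the range; without it the difference of knockout from D489V was -0.49 (limma adjusted p = 0.0900).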

How the results depend on the processing

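Fst, Igf1r and Igfbp3 kept their direction and call in knockout against D489V under all 8 planned settings and all 10 fits without 1 sample. Alternatives chosen after seeing the data ended calls: without the libraries with the most B and T cell RNA Fst was -0.53, Igf1r -0.51 and Igfbp3 -0.53, and without knockout 3 and D489V 3 Igf1r was -0.59.

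Counts of called genes moved more. In knockout against control, 1 became 3 under quantile normalization, 16 with all 15 samples in one fit and 3 without the B and T cell libraries. It was 1 to 7 without 1 sample, with 7 without knockout 2, 4 without control 5 and 2 without control 3, control 4 or knockout 3. In D489V against control, 9 became 19 with a pseudocount of 5, 4 at a mean of 50 or more, 29 under upper-quartile rescaling (75.9% higher against 44.4%), 16 under quantile normalization, 1 in one fit and 21 with robust variances. It was 2 to 28 without 1 sample, with 28 without D489V 3, 15 without control 3, 4 without control 1 or D489V 1, 3 without D489V 4 and 2 without control 2, control 4, D489V 2 or D489V 5. It was 119 without controls 1 and 2, and 14 without D489V 3 and controls 4 and 5. In knockout against D489V, 3181 became 561 without the B and T cell libraries, 1621 without knockout 3 and D489V 3, and 1415 to 3697 without 1 sample (1415, 1540 and 2014 without D489V 1, 2 and 3). The cause was not tested.

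Signs changed among the differences that were not called. Under upper-quartile rescaling Inhba in D489V against control was 0.057 and Fstl3 in knockout against D489V -0.050. Without 1 sample, Acvr2b in knockout against control ran from -0.18 to 0.17 and Igfbp5 from -0.17 to 0.11. In D489V against control Mstn ran from -0.13 to 0.16, Inhba from -0.11 to 0.14 and Igf2 from -0.037 to 0.26; in knockout against D489V Fstl3 ran from -0.089 to 0.14 and Igf1 from -0.22 to 0.049. Without the B and T cell libraries, Fstl3 and Igfbp5 in knockout against control were -0.050 and 0.43, and Fstl3 and Igf1 in knockout against D489V -0.056 and 0.067. Without controls 1 and 2, Mstn and Inhba in D489V against control were -0.16 and 0.18. Without D489V 3 and controls 4 and 5, Fst and Fstl3 were -0.0062 and -0.047. Without knockout 3 and D489V 3, Igf1 in knockout against D489V was 0.066. Without 1 sample, the log2 ratio of Igf1 to Igf2 differed by -0.33 to -0.18 in knockout and -0.60 to -0.23 in D489V against control, and by -0.0049 to 0.37 between the mutants. That of Igfbp3 to Igfbp5 in D489V against control differed by 0.66 to 1.06. Exact p was under 0.05 for the first without knockout 1 (0.0238), for the second without D489V 3 (0.0159) and for the last without control 1 or D489V 4 (0.0317).

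Deviations of same-numbered samples correlated at -0.40 to 0.39, which does not settle whether the numbers pair samples. In D489V against control the correlation was 0.39 and 0.20 for replicates 1 and 2 and -0.40 for replicate 3. The main fits used no pairing. With the replicate block 1 gene was called in knockout against control, 7 in D489V against control and 2208 between the mutants. A sign-flip test with the replicate block, which cannot go below 0.0625, put the ratios of Mstn to Fst (1.31) and Igfbp3 to Igfbp5 (-1.28) in knockout against D489V at that value.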
